A study of Mus musculus with 830 samples.

Results

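The genes Foxd3, Sox10, Tfap2a, Neurog2, Neurod4, Phox2a, Tlx2 and Chrna3 were followed through single cells of the early mouse endoderm. These 8 genes, of 26313 listed in the read counts, were chosen by name as factors of the neural crest and of autonomic neurons, with no threshold on their values. They were described over all 830 cells, each 1 library, by reporter genotype and stage. The cells came from endoderm and gut of C57BL/6XC3H embryos with 15, 18, 21, 24 or 27 somites, were stained for the epithelial protein EpCAM and sorted, and went into Smart-seq3xpress libraries, a method in plates that reads full-length transcripts. All carried a reporter of Neurog3 (Ngn3), the proneural-type transcription factor with which endocrine cells begin to form. The genotype Ngn3-GFP/GFP (called HM here) has GFP on both alleles and gave 171 cells, and Ngn3-GFP/+ (HZ) has it on 1 allele and gave 326 cells. The genotype Ngn3-Cre; Ai6 (Ngn3Cre) gave 333 cells, in which the Ai6 reporter stays on in a cell and its descendants once Cre has acted. Embryos without a reporter allele were not analysed here, and the sources used here do not say whether cells were gated on the reporter or on EpCAM.

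The neural crest is a migratory population that leaves the dorsal neural tube and forms the autonomic and enteric neurons and their glia, so in the gut it is a neighbour of the endoderm and not part of it. Foxd3, Sox10 and Tfap2a are transcription factors of its early program. Autonomic neurons form under homeobox factors that include Phox2a and Tlx2, while the proneural factors Neurog1 and Neurog2 act in sensory ganglia, cranial placodes and the neural tube, and Neurod4 and Neurod1 act after them. Chrna3 encodes a subunit of the nicotinic acetylcholine receptor of ganglia. Endocrine cells of the gut and pancreas are epithelial, yet share several factors with neurons, among them Neurod1, Isl1 and Insm1.

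Reads per cell had a median of 626967 in HM, 378157 in HZ and 465918 in Ngn3Cre, and 117 of the 830 cells fell under 100000 reads or 2000 detected genes. Levels are in CPM, read counts scaled to the total of a cell or of a pool, and a cell counted as having a gene at 10 CPM or more. For tests, cells of 1 genotype and stage were summed into pools, and the 11 pools of at least 10 cells, of 8299225 to 70763553 reads, were used. The labels name no embryo, so p-values measure the spread left between pools once genotype and stage are fitted. Replicate embryos of 1 stage do not enter it. In a pool, fewer cells of a type and less RNA per cell cannot be told apart. Neurog3 itself lay between 6.18 and 11.1 CPM in the 4 HM pools, between 79.4 and 132 CPM in the 4 HZ pools and between 147 and 553 CPM in the 3 Ngn3Cre pools.

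The 8 genes were rare. Tfap2a was at 10 CPM in 79 cells, Neurod4 in 71, Chrna3 in 68, Tlx2 in 66, Phox2a in 54, Foxd3 in 53, Neurog2 in 30 and Sox10 in 8 cells. Together they touched 167 of the 830 cells (20.1%, exact Clopper-Pearson 95% interval 17.4% to 23.0%), which covers counting error only. The share depends on the threshold: it was 35.9% at 1 read and 13.9% at 50 CPM. In the 21 hepatic-like cells (a cluster led by Apoc2, Apoa1 and other liver genes, with a median of 1121866 reads) no member reached 10 CPM. The exact interval of a count of 0 there reaches 16.1%.

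The members fell into separate cells. Tfap2a, Neurog2, Neurod4, Phox2a, Tlx2 and Chrna3 were found together: 62 cells had at least 3 of these 6 genes, 719 cells had none, 36 had 1 and 13 had 2. All 6 were present in 19 cells. The Pearson r of log2(CPM + 1) over the 830 cells lay between 0.473 and 0.823 for the 15 pairs of the 6 genes, given as a description because cells share depth and most hold no read of either gene. Foxd3 was in none of the 62 cells. At 10 CPM it shared no cell with Sox10, Neurog2, Neurod4 or Phox2a, 2 cells with Tfap2a, 1 with Tlx2 and 1 with Chrna3. Among the 6 genes the overlap differed by pair: 50 cells held both Phox2a and Neurod4, which is 92.6% of the Phox2a cells and 70.4% of the Neurod4 cells, and 28 cells held both Neurog2 and Tfap2a, 93.3% of the Neurog2 cells and 35.4% of the Tfap2a cells. Neither set lay within the other for Tlx2 and Chrna3, whose 52 shared cells were 78.8% and 76.5% of them.

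**Figure D1:**
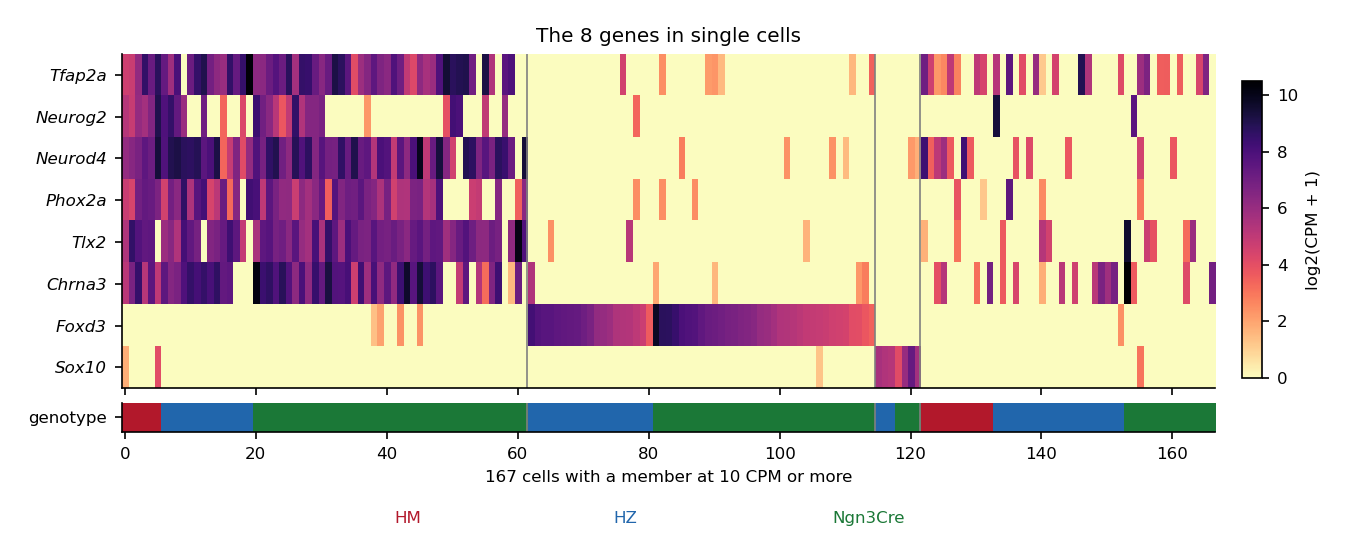
Levels of the 8 genes, as log2(CPM + 1), in the 167 cells with at least 1 of them at 10 CPM or more, with the genotype of each cell in the lower strip (x axis: cells, counted from 0). Grey lines separate, from left to right, the 62 cells with at least 3 of the 6 genes, the Foxd3 cells, the Sox10 cells and the remaining cells, and the Foxd3 row is nearly empty in the first block.

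The 62 cells were nearly all of 1 cluster. When the cells were clustered without the 8 genes, 60 of the 62 lay in a neuron-like cluster of 67 cells, with Crabp1, Stmn2, Rgs4, Gap43, Pcdh17, Ebf1, Kcnmb2, Isl2 and Neurog1 among its leading genes. The other 2 lay in an unnamed cluster led by Gm10800, Bmp4 and Hoxa10. Between 90.5% (Tfap2a) and 97.3% (Phox2a) of all reads of the 6 genes came from the neuron-like cells, against 0.232% of the Foxd3 reads and 0.855% of the Sox10 reads.

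Of the 67 neuron-like cells, Tlx2, a homeobox factor of enteric and autonomic neurons, was present in 59, with a median of 113 CPM and a highest value of 1105 CPM. Phox2a, a homeobox factor of autonomic neurons, was present in 50 of them (median 48.5, highest 396 CPM). Neurod4 was present in 58 (median 176, highest 997 CPM) and Neurog2, its upstream proneural factor, in only 28 (median 0, highest 529 CPM). The AP-2 factor Tfap2a was present in 58 (median 135, highest 691 CPM) and the receptor subunit Chrna3 in 53 (median 180, highest 1174 CPM). Neurog2 was thus the 1 gene of the 6 absent at 10 CPM from most neuron-like cells. Per transcript length, in the deposited TPM, the medians over these cells were 129 for Tlx2, 93.2 for Chrna3, 91.3 for Neurod4, 75.1 for Tfap2a, 55.8 for Phox2a and 0 for Neurog2. The lowest cell was at 0 CPM for every gene, so the ranges of all 6 overlapped.

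Levels within the neuron-like cells were similar in order of size across genotypes, though HM gave only 6 cells and HZ 15 against 46 of Ngn3Cre. The median of Tfap2a was 142, 141 and 115 CPM in HM, HZ and Ngn3Cre, and that of Neurod4 157, 231 and 150 CPM. Tlx2 had medians of 175, 91.8 and 115 CPM and Chrna3 of 73.0, 180 and 182 CPM. Phox2a had medians of 114, 43.4 and 46.1 CPM, below those of these 4 genes in HZ and Ngn3Cre and above that of Chrna3 in HM. Neurog2 was present in 5 of 6 cells of HM, 6 of 15 of HZ and 17 of 46 of Ngn3Cre, and its exact intervals overlapped (35.9% to 99.6%, 16.3% to 67.7% and 23.2% to 52.5%). Cells are not replicates, and these differences were not tested.

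The genes most like each of the 6 by Pearson r over the 830 cells were mostly the other 5. Neurod4 was nearest to Phox2a (r = 0.823), Chrna3 to Tlx2 (0.796) and Tfap2a to Neurod4 (0.766), and Neurog2 had its highest value with Tfap2a (0.551). Outside the 8 genes, the 5 nearest of each included Neurog1 for Tfap2a, Neurog2 and Neurod4 (r = 0.699, 0.523 and 0.740) and the neuronal factor Nhlh2 for Chrna3 (0.679).

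Other genes in the 62 cells were read against lists of neural genes. Of 26 pan-neuronal genes, 21 were at 10 CPM in at least 50% of the 62 cells: Tubb3 (neuronal tubulin) was in all 62, with a median of 2674 CPM, Nefm (a neurofilament) in 58 (3001 CPM) and Elavl3 (an RNA-binding protein) in 57 (193 CPM). Of 31 autonomic neuron genes 8 reached that share. Among them were Isl1 in 62 and Insm1 in 56, both shared with endocrine cells, and the neurotrophic receptor Gfra1 in 49. Several defining autonomic genes were scarce: the noradrenergic enzyme Dbh was in 23 cells, Th in 12, the peripheral filament Prph in 8 and Hand2 in 1. Of 16 listed genes of sensory and placode neurons 8 reached 50%, among them the coactivator Eya2 in 59 cells, Neurog1 in 55 and the sensory homeobox factor Pou4f1 in 48. In the 53 Foxd3 cells 9 pan-neuronal, 8 autonomic and 2 sensory and placode genes reached 50%. In the 715 cells outside both sets 6, 3 and 2 did. The autonomic count was thus the same in the 62 cells and the Foxd3 cells. The receptor subunit Chrnb4, encoded 1591 bases from Chrna3 on the same strand, was in 33 cells and the vesicular acetylcholine transporter Slc18a3 in 37.

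Most other crest genes were infrequent in the 62 cells, and most were infrequent elsewhere too. None of 25 neural crest genes was at 10 CPM in 50% of the 62 cells, 17 were there in under 5% of them, and 6 in none. In the 715 cells with neither Foxd3 nor at least 3 of the 6 genes, 1 reached 50%, 13 were under 5% and 2 in none. Ets1 was in 5 cells, Erbb3 and Pax3 in 3 each, Ednrb and Tfap2b in 1 each, and Cdh19 in 0. The integrin subunit Itga4 was the most frequent, in 23 cells (37.1%, against 15.1% of the 715). Sox9 and Snai2 followed, in 17 each (27.4%, against 52.6% and 6.57% of the 715). The summed level of the 11 crest marker genes ranged from 0 to 367 CPM in the 62 cells (median 2.31), from 0 to 441 CPM in the Foxd3 cells (median 28.3) and from 0 to 1162 CPM in all other cells (median 21.9). The 6 genes are therefore called neuronal by the cells they were in, and Foxd3 and Sox10 by name only.

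The 62 cells differed from the other 768 in epithelial genes. Foxa2, a pioneer factor of endoderm, was at 10 CPM in 12.9% of them and 82.2% of the others, and the adhesion gene Cdh1 in 6.45% and 71.0%. Epcam, the protein stained before the sort, was in 54.8% and 95.3%, with medians of 17.4 and 452 CPM. These cells were chosen by genes of the same libraries, and the shares are a description.

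Endocrine factors split into those shared with neurons and those not. Neurod1 and Isl1 were in all 62 cells, with medians of 706 and 374 CPM, and Insm1 was in 56. The endocrine-restricted factors were infrequent: Neurog3 was in 15 of the 62 cells (24.2%, highest 104 CPM), Pax6 in 15, Rfx6 in 7, Pax4 in 4 and Fev in 3, each in a smaller share than in the other 768 cells (48.2%, 51.7%, 78.0%, 34.8% and 23.0%). Of 15 endocrine-restricted genes the 62 cells had a median of 4 at 10 CPM, against 8 in the other cells. The hormones Gcg, Ghrl and Pyy made up most of that number, being at 10 CPM in 49, 49 and 48 cells.

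The hormone reads differed by genotype. In Ngn3Cre, 40 of the 42 cells with at least 3 of the 6 genes had Gcg at 10 CPM, with a median of 121 CPM and a highest value of 613 CPM. Of the other 291 Ngn3Cre cells, none hepatic-like, 260 had Gcg, with a median of 172 CPM and a highest value of 88560 CPM, so the medians were close and the highest values far apart. The medians of Ghrl were 95.1 and 737 CPM and those of Pyy 42.5 and 1627 CPM in the same cells. In HZ, 5 of 14 such cells had Gcg (median 4.47 CPM), and in HM 4 of 6 (10.8 CPM). Among hepatic-like cells, which should lack gut hormones, Gcg was at 10 CPM in 0 of 10 HZ cells, Pyy in 2 and Ghrl in 5, at a median of 879059 reads, and in HM cells Gcg and Ghrl in 1 of 11 each. No hepatic-like cell was Ngn3Cre, so the matching level there was not measured. Whether the hormone reads belong to the neuron-like cells was not tested.

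**Figure D2:**
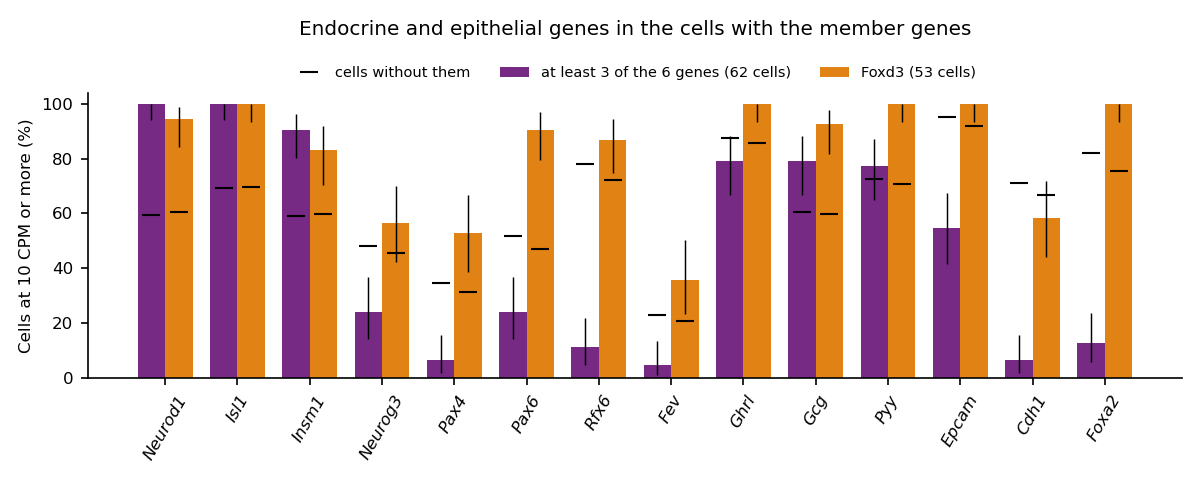
Share of cells (%) with each endocrine or epithelial gene at 10 CPM or more among the 62 cells with at least 3 of the 6 genes and among the 53 Foxd3 cells (bars, with exact 95% intervals), and among all cells without them (short lines). Foxa2 was at 12.9% in the 62 cells and at 100% in the Foxd3 cells, while Isl1 was at 100% in both.

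Foxd3 was found in cells with endocrine genes. Its 53 cells (10.0 to 881 CPM, median 69.5) all had Isl1, Ghrl, Epcam and Foxa2 at 10 CPM, 51 had the granule protein Chga, 50 had Neurod1, 48 had Pax6 and 30 had Neurog3. Ghrl encodes the hormone ghrelin. The median of Ghrl was 11889 CPM in the Foxd3 cells and 162 CPM in the other 777 cells. All 53 had at least 3 of the 15 endocrine-restricted genes, with a median of 11 against 6 in the other cells. Within genotype, the medians were 10 against 6 in HZ and 11 against 10 in Ngn3Cre.

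All 53 Foxd3 cells came from 5 of the 14 clusters, which held 402 cells. In an unnamed cluster of 59 cells led by Acsl1, Ghrl, Car3 and Gm12688, 28 cells (47.5%, 34.3% to 60.9%) had Foxd3. It was in 10 of 92 cells of an endocrine-like cluster led by Fev, in 6 of 97 of one led by Gcg, in 7 of 102 of an endocrine progenitor-like cluster led by 1700128E19Rik, Epb42 and Neurog3, and in 2 of 52 of one led by Enc1 and Dll1. The Acsl1 and Ghrl cluster held a median of 33744 CPM of Ghrl, against 510 to 671 CPM in the other 4. In that cluster Foxd3 was in 5 of 14 HZ cells and 23 of 45 Ngn3Cre cells, and it held no HM cell. Over the 5 clusters together, Foxd3 was in 19 of 162 HZ cells (11.7%, 7.21% to 17.7%), in 34 of 237 Ngn3Cre cells (14.3%, 10.1% to 19.5%) and in 0 of 3 HM cells.

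The gene most like Foxd3 was its neighbour Gm12688, a lincRNA. In GRCm38 Foxd3 lies at chr4:99656299-99658622 on the plus strand and Gm12688 at chr4:99653607-99654983 on the minus strand, 1315 bases apart and pointing away from each other. Pearson r over the 830 cells was 0.777 and Spearman rho 0.617, and Gm12688 was at 10 CPM in 44 of the 53 Foxd3 cells and in 70 cells in all. The next were Ghrl (r = 0.366), the acyl-CoA synthetase Acsl1 (0.363), the aminopeptidase Anpep (0.355) and Ptpn3 (0.317), well below it. The bases directly before the Foxd3 start, which face Gm12688, are shown here because the 2 genes were seen together. Which factors bind there was not tested. The sequence is RefSeq's on GRCm38.p6, chr4:99656049-99656298, 5′ to 3′ on the plus strand, and capitals mark its 1 E-box (CACGTG, a form of CANNTG, the general core of basic helix-loop-helix factors):
Foxd3 upstream: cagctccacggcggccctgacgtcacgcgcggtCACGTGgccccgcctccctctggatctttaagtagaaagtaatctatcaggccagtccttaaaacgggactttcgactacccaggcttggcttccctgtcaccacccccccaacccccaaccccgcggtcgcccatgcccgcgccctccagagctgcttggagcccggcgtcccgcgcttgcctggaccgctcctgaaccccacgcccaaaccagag

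**Figure D3:**
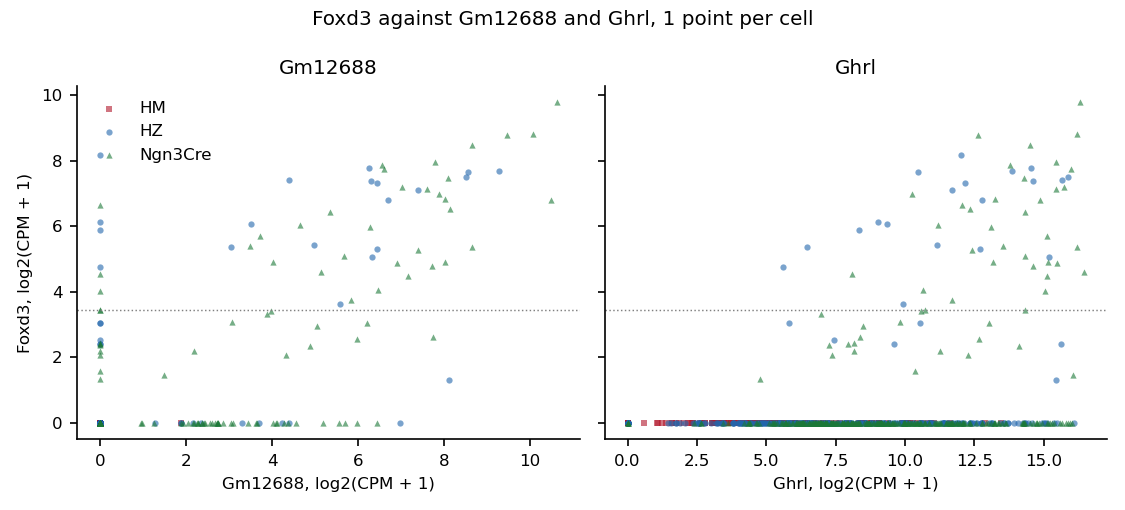
Foxd3 against its neighbour Gm12688 (left) and against Ghrl (right), both axes as log2(CPM + 1), 1 point per cell, coloured by genotype, with a dotted line at 10 CPM. The 53 cells above the line are HZ or Ngn3Cre, 44 of them have Gm12688 at 10 CPM or more, and no HM cell leaves the baseline.

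Upstream bases of the 6 neuronal genes were read for the same motif, since they were seen in the same cells. All but Tlx2 have an entry in the RefSeq table used, and of these only Chrna3 held CANNTG in the 250 bases before a listed start, as 2 overlapping matches read on both strands. The motif was in 66.2% of 32851 promoters of that length, so its lack in Tfap2a, Neurog2, Neurod4 and Phox2a says only that these letters are not in those windows. The variant CAGATG, in 14.4% of promoters, was in none of the members' windows, and the homeobox core TAATTA, in 4.84%, was in 1 of the 2 Tfap2a windows. The Chrna3 window (chr9:55026563-55026812, minus strand) and that of Phox2a (chr7:101818063-101818312, plus strand) are shown to set a window with the motif, in capitals, beside one without it:
Chrna3 upstream: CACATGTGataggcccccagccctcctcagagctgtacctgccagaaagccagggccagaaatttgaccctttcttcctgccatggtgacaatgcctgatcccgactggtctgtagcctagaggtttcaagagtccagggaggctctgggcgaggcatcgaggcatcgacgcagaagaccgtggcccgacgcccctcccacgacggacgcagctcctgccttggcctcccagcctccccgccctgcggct
Phox2a upstream: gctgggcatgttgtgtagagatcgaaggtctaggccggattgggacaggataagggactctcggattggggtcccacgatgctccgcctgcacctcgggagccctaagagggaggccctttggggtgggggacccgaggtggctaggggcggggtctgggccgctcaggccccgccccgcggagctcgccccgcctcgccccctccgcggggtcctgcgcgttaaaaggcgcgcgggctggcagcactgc

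Sox10, the factor that marks crest cells and enteric glia, was nearly absent. It had 234 reads over all cells, 82.1% of them in 5 cells, and 8 cells reached 10 CPM (15.8 to 161 CPM). Of these, 7 lay in the Neurog3-led progenitor-like cluster and 1 among the neuron-like cells. All 8 had Neurog3, Neurod1, Isl1 and Epcam at 10 CPM, with a median of 1115 CPM of Neurog3 against 7.57 CPM in the other 822 cells. Its nearest gene was Shank3, at r = 0.284, a weak value from sparse counts.

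Cells with at least 3 of the 6 genes made up 3.51% in HM (6 of 171, 1.30% to 7.48%), 4.29% in HZ (14 of 326, 2.37% to 7.10%) and 12.6% in Ngn3Cre (42 of 333, 9.24% to 16.7%). In Ngn3Cre it was 6.60% at 21 somites, 15.5% at 24 and 15.9% at 27. In HZ it was 3.28%, 6.04%, 2.35% and 3.85% at 18, 21, 24 and 27 somites. In HM 1 of 16 cells at 15 somites and 4 of 80 at 24 had them, with none of 17 at 18 and none of 54 at 21. At 21 somites HZ and Ngn3Cre thus had nearly the same share, and the Ngn3Cre shares at 24 and 27 somites were above all HZ shares. At 24 somites the exact intervals did not overlap (HZ 0.286% to 8.24%, Ngn3Cre 10.2% to 22.2%). At 27 somites, where HZ had 1 of 26 cells, they did (0.0973% to 19.6% and 8.24% to 26.7%). The intervals cover counting error within a pool and not the difference between embryos.

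Foxd3 was in 0 of 171 HM cells (0% to 2.13%), in 19 of 326 HZ cells (5.83%, 3.55% to 8.95%) and in 34 of 333 Ngn3Cre cells (10.2%, 7.18% to 14.0%). No HZ cell of 61 had it at 18 somites. At 21, 24 and 27 somites the HZ shares were 6.04%, 9.41% and 7.69% and the Ngn3Cre shares 9.43%, 9.03% and 14.5%.

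**Figure D4:**
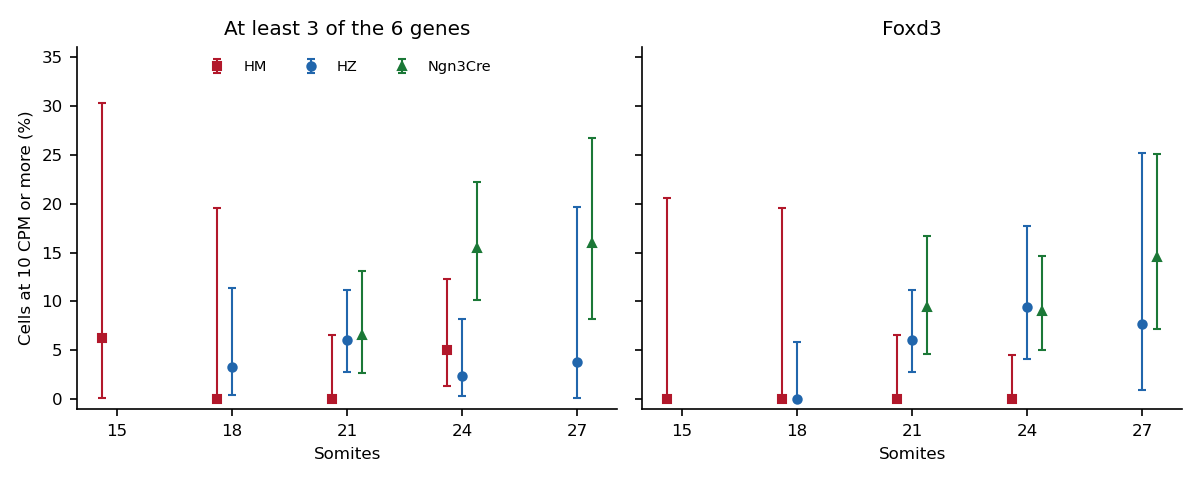
Share of cells (%) at 10 CPM or more by somite number and genotype, for at least 3 of the 6 genes (left) and for Foxd3 (right), with exact 95% intervals, in the 11 pools of at least 10 cells. Points are shifted slightly along the x axis so that they do not cover each other. The HM points for Foxd3 all lie at 0.

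Foxd3 was the only member called between HM and HZ. Its TMM-scaled level was 0 in all 4 HM pools, 0.0819, 5.72, 6.03 and 1.71 CPM in HZ at 18, 21, 24 and 27 somites, and 8.08, 12.3 and 24.1 CPM in Ngn3Cre at 21, 24 and 27. The genotypes did not overlap, with every Ngn3Cre pool above every HZ pool. Few cells carried much of this level: 20.4% of all Foxd3 reads lay in 1 cell and 44.0% in 5. In Ngn3Cre at 27 somites the Foxd3 cells had a median of 28.8 CPM and a highest value of 881 CPM. In HZ against HM, 586 reads stood against 0 in the tested pools, so over the summed reads of the pools Foxd3 was at least 157-fold lower in HM, taking 3 counts in all HM pools as the floor, and edgeR's adjusted p was 0.0303. For the 18420 genes tested, 1.38% were called lower in HM at an adjusted p under 0.05, 0.0923% higher and 1.47% in either direction. All 8 members passed the filter on low counts, and 1 was called. The call was lost when HM, HZ or Ngn3Cre at 21 somites, or HM, HZ or Ngn3Cre at 24 somites, was left out in turn, with edgeR adjusted p from 0.0538 to 0.125. It was also lost in limma on mean CPM or TPM (adjusted p = 0.153 and 0.176) and with the 3 small pools entered (edgeR adjusted p = 0.0627). It was kept without the neuron-like cells (edgeR adjusted p = 0.0234).

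The absence of Foxd3 reads from HM went with a near absence of the cells that held it elsewhere: 3 of 171 HM cells were in the 5 clusters with Foxd3, against 162 of 326 HZ cells. Its neighbour Gm12688 was likewise lower in HM, at most 0.0368 CPM in an HM pool and 4.33 ± 4.10 CPM in HZ (SD, n = 4 pools), with edgeR's adjusted p at 0.0381. Ghrl averaged 249 ± 177 CPM over the HM pools, against 2218 ± 2238 CPM over those of HZ (SD, n = 4 pools each), and was not called (log2 change -3.62 ± 1.17 SE, edgeR adjusted p = 0.208). Which share of the Foxd3 difference lies in cell numbers was not tested.

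The other 7 members had negative log2 changes in HM against HZ, and none was called. The sign turned in at least 1 alternative fit for Neurod4, Neurog2, Phox2a and Tlx2. At matched stages all 6 neuronal genes were lower in HM than in HZ at 18 and 21 somites, and all 6 were higher in HM at 24. At 24 somites Tlx2 was at 16.3 CPM in HM and 1.20 in HZ, Chrna3 at 11.3 and 2.66, and Neurod4 at 9.21 and 8.92 CPM. Tfap2a was at 4.23, 0, 2.12 and 8.97 CPM in HM at 15, 18, 21 and 24 somites, against 1.60, 24.4, 5.29 and 2.57 CPM in HZ at 18, 21, 24 and 27. Its log2 change was -1.89 ± 1.06 (SE, edgeR adjusted p = 0.488). Tlx2 was at 7.66, 0, 0.463 and 16.3 CPM in HM and at 6.06, 11.3, 1.20 and 0.696 CPM in HZ. Its mean was higher in HM (6.10 ± 7.64 CPM, SD, n = 4) than in HZ (4.82 ± 4.96 CPM), while the change fitted at matched stages was -1.81 ± 2.27 (SE, edgeR adjusted p = 0.783). The groups overlapped for Tlx2, as they did for Tfap2a.

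Neurod4 was at 11.0, 0.443, 3.87 and 9.21 CPM in HM and at 7.41, 21.9, 8.92 and 4.50 CPM in HZ, a log2 change of -1.66 ± 1.00 (SE). Neurog2 had no read in HM at 18 and 21 somites and was at 6.08 and 3.76 CPM at 15 and 24, against 1.84, 7.57, 2.47 and 0 CPM in HZ. Phox2a was likewise at 0 in HM at 18 and 21 somites and at 5.15 and 4.83 CPM at 15 and 24, against 7.86, 7.28, 1.56 and 0.214 CPM in HZ. Chrna3 was at 5.81, 0, 0 and 11.3 CPM in HM and at 5.32, 17.2, 2.66 and 8.83 CPM in HZ. For these 4 genes edgeR's adjusted p lay between 0.520 and 0.696. Sox10 had 3 reads in the HM pool at 15 somites (0.396 CPM) and 2 at 24, and its log2 change was -3.61 ± 2.39 (SE, edgeR adjusted p = 0.566). The HM pools at 18 and 21 somites were the low ones for all 6 neuronal genes, and those at 15 and 24 somites lay within the range of the HZ pools, except Tlx2 at 24 somites, which was above it.

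Between Ngn3Cre and HZ no member was called, where 0.337% of the 18420 genes were called by edgeR, 0.00543% higher and 0.331% lower (62 genes; 1938 at an unadjusted p under 0.05 and 920 by DESeq2). At an unadjusted p under 0.05, 0 of the 8 members passed, and DESeq2 called 0. Mean levels were higher in Ngn3Cre for all 8: Chrna3 averaged 27.8 ± 25.5 CPM (SD, n = 3 pools) against 8.50 ± 6.32 CPM in HZ (n = 4), Neurod4 29.2 ± 26.4 against 10.7 ± 7.71 CPM, and Foxd3 14.8 ± 8.31 against 3.39 ± 2.95 CPM. Most of that height came from the later stages. Chrna3 was at 2.84, 26.8 and 53.9 CPM, Neurod4 at 4.07, 26.8 and 56.8 CPM, Phox2a at 0.167, 12.1 and 22.0 CPM and Tlx2 at 4.49, 18.2 and 24.9 CPM in Ngn3Cre at 21, 24 and 27 somites. At 21 somites these 4 genes were lower in Ngn3Cre than in HZ (17.2, 21.9, 7.28 and 11.3 CPM), and at 24 and 27 they were higher. The fitted changes were accordingly small beside their errors: 0.53 ± 1.23 for Neurod4, -0.47 ± 1.89 for Chrna3 and -1.62 ± 3.39 for Phox2a (log2, SE), the last 2 with a sign opposite to that of the means.

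Tfap2a was at 14.3, 30.0 and 18.9 CPM in Ngn3Cre and Neurog2 at 3.69, 3.88 and 6.27 CPM, with log2 changes of 0.94 ± 1.05 and 0.49 ± 2.40 (SE) against HZ. Foxd3 had the largest change relative to its error, 1.70 ± 0.87 (SE; edgeR adjusted p = 0.566). Sox10 was at 0.814, 1.24 and 1.02 CPM in Ngn3Cre and at 0.246, 0.672, 0 and 0.107 CPM in HZ, and its log2 change was 2.23 ± 2.13 (SE). Both genotype comparisons use the same HZ pools.

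**Figure D5:**
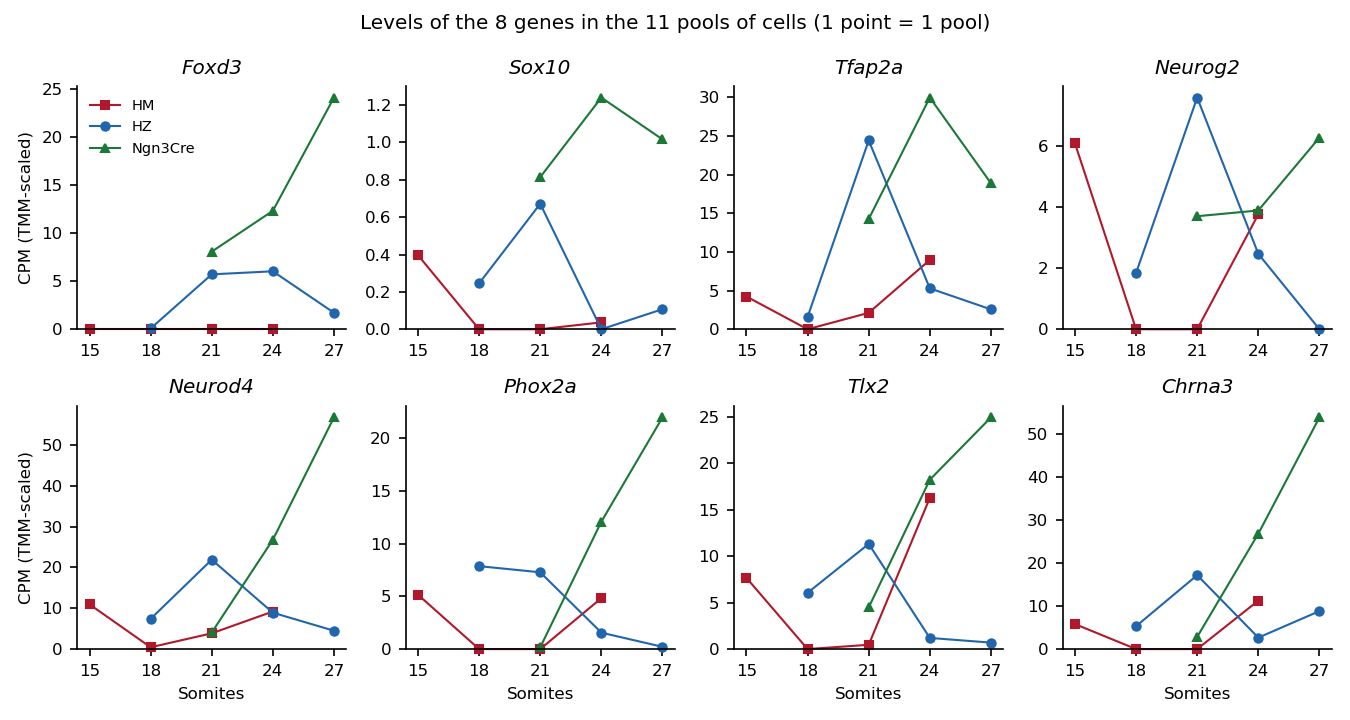
Levels of the 8 genes in TMM-scaled CPM (y axes, each from 0) by somite number in the 11 tested pools, 1 point per pool, with lines joining the pools of a genotype. Foxd3 is at 0 in all HM pools, and Chrna3 and Neurod4 reach 53.9 and 56.8 CPM in Ngn3Cre at 27 somites.

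Over stage, with genotype held, no member had a called slope, and neither had any of the 18420 genes in edgeR (0% called, 1575 at an unadjusted p under 0.05, and 333 called by DESeq2). Per somite the log2 slopes ran from -0.28 ± 0.21 (SE) for Sox10 to 0.23 ± 0.22 (SE) for Foxd3, and 3 of the 8 were negative.

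The wider gene lists set the members in context. Between HM and HZ, 0 of 22 neural crest genes tested passed the threshold and their median log2 change was -0.83, against -0.089 over all genes. Of 30 autonomic neuron genes, 5 fell and 0 rose (median -3.25): Gfra3, Ret, Slc18a2, Hand1 and Insm1. Ret and Gfra3, receptors for neurotrophic factors, and Slc18a2, a vesicular monoamine transporter, were at 10 CPM in 40, 42 and 20 of the 53 Foxd3 cells but in 27, 11 and 18 of the 62 cells of the 6 genes, and Hand1 was in 1 of each. Insm1 went the other way, in 44 of the 53 (83.0%) and 56 of the 62 (90.3%). The mean of Hand1 over pools was higher in HM (7.44 ± 14.7 CPM, SD, n = 4) than in HZ (4.02 ± 5.17 CPM), opposite to the change fitted at matched stages (log2 -4.87 ± 0.97 SE, edgeR adjusted p = 0.0427). The log2 changes of Ret and Gfra3 were -3.67 ± 0.63 and -5.97 ± 0.59 (SE; edgeR adjusted p = 0.0251 and 0.00124). Of 26 pan-neuronal genes 3 fell (Map2, Celf3 and Dll3), each of which was in more Foxd3 cells (46, 51 and 53 of 53) than cells of the 6 genes (41, 37 and 39 of 62). Of 16 sensory and placode genes 0 passed (median -0.45). Of 8 tested relatives of Neurog2 and Neurod4, Neurog3 alone fell, and it is the gene with GFP on both alleles in HM.

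The endocrine lists moved more. Of 15 endocrine-restricted genes 11 fell in HM, among them Gpr119, Pou3f4, Pax4 and Pax6 (log2 changes -9.38, -8.55, -7.98 and -6.90), and of 14 genes shared by endocrine cells and neurons 8 fell. Of the 8 members, all 8 had a negative change, with a median of -3.07, as did 10176 of the 18420 genes tested. Between Ngn3Cre and HZ, 0 genes of these lists passed in edgeR, and the medians were 0.55 for the members, 0.33 for autonomic, 0.15 for pan-neuronal, -0.91 for sensory and placode and 1.43 for endocrine-restricted genes, against -0.018 over all genes. The lists were not tested as sets.

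Reads of overlapping genes cannot be separated, since the sources used here do not say whether counting used strand. Tfap2a (chr13:40715302-40738376, minus strand) overlaps the antisense gene Gm26688, which is listed with 683 reads against 6282 of Tfap2a. The last bases of Phox2a (chr7:101818313-101822726, plus strand) overlap Inppl1 on the other strand, a widely present gene with 14227 reads against 3035 of Phox2a. The other members lie clear of listed genes: Sox10 at chr15:79154908-79165240 (minus), Neurog2 at chr3:127633135-127635631 (plus), Neurod4 at chr10:130268152-130280240 (minus), Tlx2 at chr6:83068324-83070293 (minus) and Chrna3 at chr9:55010111-55026562 (minus), all in GRCm38.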

How the data were processed

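Per the file headers and values, the authors deposited a table of whole read counts per gene and cell, not scaled, and a table of TPM for the same 830 cells. The submitters' processing notes name FastQC 0.11.9, Trimmomatic 0.39, HISAT2 2.1.0 and the builds GRCm38 and mm10. Not given in the sources used here are the read counter, the annotation, whether strand and UMIs were used, and how cells were filtered.

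Cells of the same genotype and stage were pooled by adding their counts, and the 11 pools of at least 10 cells were fitted in edgeR 4.0.16 (R 4.3.3) with its quasi-likelihood test, TMM scaling, edgeR's filter on low counts (18420 genes kept) and Benjamini-Hochberg adjustment over all genes at 0.05. Genotype contrasts had genotype and stage as factors, and the stage slope genotype and somite number. The HM pool at 15 somites is alone at its stage and carries no weight in the contrasts, though it enters means and scaling. The SE of a log2 change is its size over the square root of F. The left-out pools are HM at 27 somites (4 cells), HZ at 15 (5 cells) and Ngn3Cre at 18 (3 cells). DESeq2 1.42.0 and limma 3.58.1 (log2 of mean CPM or TPM plus 1) were alternatives. On simulated counts for 18420 genes in the design of HM against HZ, 181 of 190 changed genes were recovered with 6 false calls. Recovery at the spread of the 8 members was not tested, and a member that was not called may still differ. In HM against HZ the SE of the log2 change was 3.07 for Phox2a and 2.27 for Tlx2.

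Cells were clustered with scanpy 1.11.5 (2000 variable genes without the 8 members, 30 components, resolution 1), and a cluster was named from at least 3 markers among its 60 leading genes. No doublet caller was run, and no cells were identical. Median depth was 486310 reads in the cells with at least 3 of the 6 neuronal genes and 471651 reads in the Foxd3 cells. Intervals are exact Clopper-Pearson at 95%, and floors are 3 counts. In every comparison all 8 members were named, with up to 5 genes of each list by smallest p and up to 3 by level, and per member the 5 genes with the highest r among genes at 10 CPM in at least 20 cells; other genes named for their shares in cells were picked from the lists after their values were seen. Some genes that these rules name are not reported here. Drgx of the sensory and placode list was not found in the table. Positions come from GENCODE vM21. The members, lists and markers were chosen with earlier results of these data known.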

Additional observations from a re-analysis of the deposited data

Results flagged for a closer look

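A pool of 4 HM cells at 27 somites, too small for the tests, held more of the 6 neuronal genes than any HZ pool tested, in CPM without TMM scaling. Tfap2a was at 52.7 CPM there (highest HZ pool 24.6), Neurog2 at 34.0 (7.64), Neurod4 at 48.7 (22.1), Phox2a at 52.7 (7.69), Tlx2 at 64.0 (11.4) and Chrna3 at 66.9 CPM (17.3). All 6 genes were at 10 CPM in 1 of the 4 cells, so these values rest on 1 cell. In 2 groups of 4 pools, 1 pool stood apart from the others by Dixon's criterion at 95%: Tfap2a in HZ at 21 somites (24.4 CPM, next 5.29 CPM) and Sox10 in HM at 15 somites (0.396 CPM, next 0.0368 CPM, from 3 reads). Of 15 such groups, chance flags about 1 in 20.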

How the results depend on the processing

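Among the 8 members, the count called between HM and HZ (1, Foxd3) was 0 in limma on mean CPM, in limma on mean TPM and with the 3 small pools, and 0 to 1 in the leave-one-out fits. Calls over all genes moved more: for HM against HZ from 271 to 1386 in DESeq2, 537 and 484 in limma, 37 with the small pools and 89 to 318 leaving out a pool; for Ngn3Cre against HZ from 62 to 105 without a filter, 920, 21 and 2, 2, 287 without neuron-like cells and 0 to 104; for the slope from 0 to 333 in DESeq2, 82 with the small pools and 0 to 2. The share of cells with a member (20.1%) was 35.9% at 1 read, 13.9% at 50 CPM and 27.9% after thinning to 100000 reads (713 cells). The share of those cells with at least 3 endocrine-restricted genes (85.6%) was 96.0% at 1 read and 55.7% at 50 CPM. Signs of log2 changes that were not called turned in several fits. In HM against HZ, Neurod4 was 0.27 and 0.21 in limma on CPM and TPM and 1.29 without neuron-like cells, and with the small pools Neurog2 was 0.37 and Tlx2 0.50. In Ngn3Cre against HZ, limma gave 0.28 and 0.39 for Phox2a and 1.15 and 1.16 for Chrna3, removal of neuron-like cells gave -2.52 for Tfap2a, -0.031 for Neurog2, -0.36 for Neurod4 and 0.36 for Phox2a, and the small pools -0.23 for Neurog2. For the slope, limma gave 0.039 and 0.041 for Phox2a, removal of neuron-like cells -0.039 for Tfap2a, -0.035 for Neurod4 and -0.40 for Tlx2, and the small pools 0.19 for Neurog2 and 0.26 for Phox2a. Leaving out a pool turned the sign in HM against HZ for Phox2a (-10.39 to 0.025) and Tlx2 (-4.56 to 1.32). It did so in Ngn3Cre against HZ for Tfap2a (-0.078 to 2.09), Neurog2 (-1.12 to 5.29), Neurod4 (-1.02 to 1.97), Phox2a (-4.28 to 4.11), Tlx2 (-1.23 to 3.87) and Chrna3 (-2.09 to 2.50), and for the slope of Tfap2a (-0.12 to 0.19), Neurog2 (-0.59 to 0.19), Neurod4 (-0.038 to 0.25), Phox2a (-0.55 to 0.21), Tlx2 (-0.38 to 0.19) and Chrna3 (-0.10 to 0.42). The cause of these changes was not tested. Foxd3 stayed negative in HM in all fits run. No paired analysis was possible because the numbers in the labels only name cells within a genotype and stage. Sox10, with 234 reads, is limited by depth.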

Other observations

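Another group of cells held neuronal genes. An unnamed cluster of 19 cells (7 HM, 10 HZ and 2 Ngn3Cre), with Rgs13, Fgf10 and Ccnd1 among its leading genes, had Tubb3, Neurod1 and Elavl3 at 10 CPM in all 19 cells, with medians of 1574, 1143 and 302 CPM. Isl1 was there in 18 cells, Pou4f1 in 14 and Neurog1 in 13. Of the 8 members, Chrna3 was in 7 of the 19 cells (highest 120 CPM), Neurod4 in 5 (highest 57.7 CPM) and Tfap2a in 5 (highest 31.5 CPM), while Neurog2, Phox2a and Tlx2 were in 0, as was Foxa2. Epcam was in 12 of them, with a median of 24.4 CPM. These cells were singled out after their values were seen.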
